A study of Mus musculus with 151 samples.

Results

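The levels of 8 genes of the red blood cell lineage were followed through every count table of a mouse study of conception by IVF. They were the adult alpha globins Hba-a1 and Hba-a2, the embryonic alpha-like globin Hba-x, the adult beta globins Hbb-bs and Hbb-bt, the embryonic beta-like globin Hbb-y, the heme synthesis enzyme Alas2 and the membrane protein Slc4a1. These 8 of the 35976 gene rows were taken by name from all 7 tables, and they were picked because their levels in the E18.5 ovary were already known to differ between conception groups. The E18.5 difference between IVF and Natural is therefore given as a description with no test, and the tests are kept for the other ages and cell types.

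The Natural group came from CF-1 females mated with B6/SJL males. The IVF group came from eggs of superovulated CF-1 females fertilized with B6/SJL sperm, cultured to blastocysts and transferred to pseudopregnant CF-1 recipients. All animals sampled were female. Ovaries were sequenced at E18.5 (4 Natural, 6 IVF), 12 weeks (4 Natural, 5 IVF) and 39 weeks (5 Natural, 5 IVF), with whole gonads used in the fetus and a piece of a frozen ovary in the adult. Pools of E13.5 primordial germ cells (PGCs; 4 Natural, 5 IVF), cumulus cells at 12 weeks (5 Natural, 5 IVF) and single oocytes at 12 weeks (36 Natural, 40 IVF) and 39 weeks (9 Natural, 10 IVF) were amplified as low-input libraries. Adult cohorts of the study were delivered by cesarean section and fostered to CF-1 dams, and the oocytes and cumulus cells came from hormone-stimulated females, and both conception groups shared those steps. The methods give the collection day of IVF fetuses as E18.5 in the tissue collection and as a day later in the section on delivery, and 1 of the 39-week Natural ovaries, replicate 5, is labelled 40 weeks in its tissue field.

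Hemoglobin is built from alpha-like and beta-like globin chains, each holding a heme. In the mouse, the first red cells arise in the yolk sac and carry embryonic globins such as the zeta chain of Hba-x and the epsilon-y chain of Hbb-y, and the later red cells from the fetal liver and the adult bone marrow carry the adult chains. Alas2 makes the first step of heme synthesis in erythroid cells and lies on the X chromosome, and Slc4a1 (band 3) exchanges chloride and bicarbonate across the red cell membrane and anchors the membrane skeleton. No ovarian cell type is known for making red cells, and a tissue library also holds the RNA of the blood cells in the tissue.

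Total counts ran from 6995710 to 14830800 in the E18.5 ovaries, 2839020 to 43363800 at 12 weeks and 18080000 to 38751600 at 39 weeks. Low-input libraries ran from 839781 counts in an oocyte to 31126400 in another. Levels are given as CPM, the counts of a gene per 1e+06 counts of the library total after scaling by the TMM method, and changes as log2 fold changes with positive values for higher in IVF or at the later age. The methods state that the ovaries sequenced came from different litters, with up to 2 littermates from a litter in adult cohorts, but the labels do not tie a library to a litter. The animals and litters behind the PGC and cumulus libraries are not given in the sources used here, and their p-values measure the spread between these libraries only. In whole-tissue libraries, fewer cells of a type and less RNA per cell cannot be told apart.

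The sequences of the adult pairs are shown because they bear on how far the rows can be told apart. Hba-a1 (ENSMUSG00000069919, chr11:32283511-32284465) and Hba-a2 (ENSMUSG00000069917, chr11:32296489-32297298) lie on the plus strand of the same cluster as Hba-x (ENSMUSG00000055609, chr11:32276400-32278116), in GRCm38 coordinates of the GENCODE transcripts. Their coding sequences differed at 1 of 426 bases, C381T from Hba-a1 to Hba-a2, counted from 1 at the A of the start codon, and the transcripts differed at 1 of 538 overlapping bases. Hbb-bs (ENSMUSG00000052305, chr7:103826534-103827928) and Hbb-bt (ENSMUSG00000073940, chr7:103812524-103813996) lie on the minus strand with Hbb-y (ENSMUSG00000052187, chr7:103851749-103853216). The Hbb-bs and Hbb-bt coding sequences also differed at 1 of 441 bases, C417T, but their transcripts differed at 95 of 628 overlapping bases. The embryonic genes were far apart from the adult genes, with 61.737% identity of Hba-x to Hba-a1 and 74.376% of Hbb-y to Hbb-bs over the coding bases. The stretches below, all in the last coding exon, show the distinguishing base of each adult pair in capitals, and the capitals in Hbb-y mark each base that differs from Hbb-bs.
Hba-a1, chr11:32284313-32284373, plus strand: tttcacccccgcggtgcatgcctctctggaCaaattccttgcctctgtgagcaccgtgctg
Hba-a2, chr11:32297130-32297190, plus strand: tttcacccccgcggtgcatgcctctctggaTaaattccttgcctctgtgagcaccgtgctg
Hbb-bs, chr7:103826668-103826728, minus strand: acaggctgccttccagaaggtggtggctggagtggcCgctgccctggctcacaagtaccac
Hbb-bt, chr7:103812659-103812719, minus strand: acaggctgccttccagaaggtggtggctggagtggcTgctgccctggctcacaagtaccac
Hbb-y, chr7:103851877-103851937, minus strand: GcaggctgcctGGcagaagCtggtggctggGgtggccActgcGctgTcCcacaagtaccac

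The promoters are shown because the members with a promoter window carried a short word in common. GATAA is the core of the sequence that the erythroid factor Gata1 binds. RefSeq promoter windows, from 250 bases before to 50 bases after the transcript start in GRCm38.p6, held GATAA on either strand in all 7 of the members found in the table, 1 match each, against 25.4% of 32851 windows. All but the Alas2 window belong to related globin genes, so the matches are not independent of each other. Hba-a1 and Hba-a2 were identical over the 297 promoter bases compared. TATAA, also searched, lay on the gene strand in all of these windows but that of Hbb-y, and in 17.5% of all windows. The word CCNCNCCC, a form of the sequence bound by the erythroid factor Klf1, was found on either strand in Hba-x, Hbb-bs, Hbb-bt and Alas2 and in 49.5% of all windows, so its presence separates few genes from the rest. A match is a string of letters and not a shown binding site. The windows include those of Hba-x and Hbb-y, which did not pass the filter at E18.5, and none of Slc4a1. A link between the word and the E18.5 difference was not tested. The GATAA match, or TTATC where it lies on the opposite strand, is in capitals.
Hba-a2, chr11:32296289-32296325, plus strand: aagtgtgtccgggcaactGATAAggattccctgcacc
Hbb-bs, chr7:103828119-103828155, minus strand: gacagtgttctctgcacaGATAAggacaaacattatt
Hbb-bt, chr7:103814109-103814145, minus strand: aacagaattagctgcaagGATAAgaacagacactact
Hbb-y, chr7:103853351-103853387, minus strand: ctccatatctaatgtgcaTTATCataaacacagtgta
Alas2, chrX:150547313-150547349, plus strand: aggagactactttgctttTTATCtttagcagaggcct

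In the E18.5 ovary, every member that passed the filter on low counts had a higher mean level in IVF than in Natural. Hbb-bs, the most abundant of them, was at 386, 672, 751 and 957 CPM in the 4 Natural ovaries and between 1086 and 3008 CPM, with a median of 1664, in the 6 IVF ovaries. The lowest IVF ovary lay above the highest Natural ovary. Means were 1803 ± 725 CPM (SD, n = 6) in IVF and 691 ± 236 (n = 4) in Natural, a log2 fold change of 1.38. Hbb-bt, its neighbour, was at 88.6, 109, 129 and 186 CPM in Natural and between 100.2 and 657 CPM, with a median of 387, in IVF. Its groups overlapped, since IVF replicates 1 and 3 (155 and 100.2 CPM) fell among the Natural ovaries, and the log2 fold change was 1.57.

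Hba-a1, an adult alpha globin, was at 115, 192, 282 and 437 CPM in the Natural ovaries and between 328 and 820.3 CPM, with a median of 495, in IVF. Natural replicate 4 lay above the lowest IVF ovary, and the log2 fold change of 1.01 was the smallest among the members tested. Summed over the near-identical alpha copies, the log2 fold change was 1.10 for Hba-a1 with Hba-a2, and summed over the beta copies it was 1.41 for Hbb-bs with Hbb-bt. The 10 globin rows of the table together took 0.161 to 0.450% of an IVF library and 0.0575 to 0.158% of a Natural library.

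Alas2 (ENSMUSG00000025270, chrX:150547375-150570638, plus strand) was at 8.41, 13.3, 18.0 and 19.2 CPM in Natural and between 29.0 and 91.2 CPM, with a median of 50.5, in IVF. As for Hbb-bs, no IVF ovary was as low as a Natural one, and the means of 54.1 ± 23.2 CPM (SD, n = 6) and 14.7 ± 4.93 (n = 4) gave a log2 fold change of 1.87. Slc4a1 (ENSMUSG00000006574, chr11:102348824-102365280, minus strand) was at 5.83, 14.1, 17.5 and 3.72 CPM in Natural and between 16.0 and 86.8 CPM, with a median of 39.0, in IVF, a log2 fold change of 2.10. Natural replicate 3 lay above the lowest IVF ovary. The members did not keep 1 order of libraries, since Natural replicate 4 had the highest Natural values of Hba-a1, Hbb-bs, Hbb-bt and Alas2 and the lowest of Slc4a1.

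**Figure D1:**
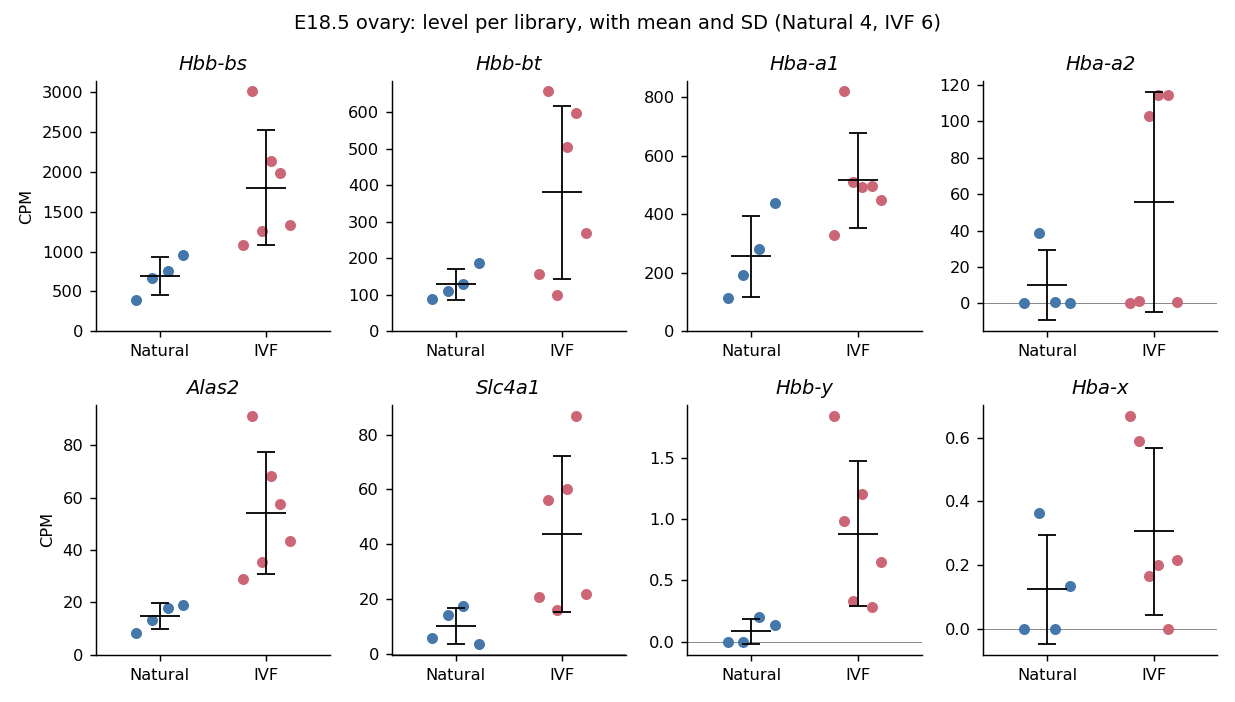
CPM of the 8 members in each E18.5 ovary, Natural (4, blue) and IVF (6, red), each panel on its own linear axis with the mean as a bar and the SD as whiskers. Hbb-bs and Alas2 do not overlap between the groups, nor does Hbb-y at trace levels, Hba-a2 falls into high and low libraries, and Hbb-y and Hba-x lie below 2 CPM.

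Of the 8 members, 6 passed the filter and 2, Hba-x and Hbb-y, did not. The 6 had log2 fold changes from 1.01 to 2.49 with a median of 1.72, and the median over all 16415 genes tested was 0.000215 with 5 to 95% of genes between -0.69 and 0.79. Groups did not overlap, with IVF higher, for 2 of the 6 (Hbb-bs and Alas2), and for 4.28% of all genes. Because this contrast chose the members, this count describes the choice and is not read further.

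Compared per kilobase of transcript, Hbb-bs led in both groups at E18.5 (mean 2871 CPM per kb in IVF and 1101 in Natural), followed by Hba-a1 (738 and 367) and Hbb-bt (541 and 182). Hba-a2 (100.3 and 18.0), Alas2 (26.6 and 7.24) and Slc4a1 (9.60 and 2.26) came next, and the embryonic Hbb-y (1.39 and 0.132) and Hba-x (0.383 and 0.155) were last. Neighbours whose means ± SD met were Hba-a1 and Hbb-bt (SD 234 and 337 in IVF, 198 and 59.9 in Natural), Hba-a2 and Alas2 (SD of Hba-a2 109 and 34.4) and the embryonic pair, each in both groups. In IVF alone, Hbb-bt also met Hba-a2, and Alas2 met Slc4a1 (SD 11.4 and 6.27). Of the 8, Hbb-bs was the only member whose range met no neighbour in either group. Counts of alpha-like reads per beta-like read were 0.224 to 0.451 in IVF and 0.243 to 0.382 in Natural ovaries.

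The embryonic globins were present at a trace. Hbb-y had 2 to 22 counts in the 6 IVF ovaries and 0, 0, 2 and 2 in the 4 Natural ovaries, and Hba-x had 0 to 8 counts in IVF and 0, 4, 0 and 2 in Natural. IVF replicate 1 held the most of both, and it was also the only ovary with counts of the embryonic Hbb-bh1 (2 counts). Mean levels of Hbb-y were 0.881 ± 0.591 CPM (SD, n = 6) in IVF and 0.0837 ± 0.1001 (n = 4) in Natural, the latter under the floor of 3 counts in each library. Embryonic chains made up 0.0108 to 0.161% of beta-like counts in IVF, with a median of 0.0335%, and 0 to 0.0227% in Natural, with a median of 0.00592%. In IVF replicate 1 these were 24 of 14885 counts (0.161%, exact 95% binomial interval 0.103 to 0.240%). Of alpha-like counts, Hba-x took 0 to 0.203% in IVF and 0 to 0.157% in Natural. Intervals cover counting error only, since the reads carry no molecular identifiers.

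Hba-a2 did not vary like the other members. Counts were 4, 12, 1234, 1140, 816 and 5 in IVF replicates 1 to 6 and 4, 425, 9 and 3 in Natural replicates 1 to 4. Its share of the Hba-a1 and Hba-a2 counts was 16.8, 18.8 and 18.7% in IVF replicates 3, 4 and 5 and 16.7% in Natural replicate 2, and between 0.0464 and 0.318% in the other 6 ovaries. Across the 29 ovaries of 3 ages, 10 had a share of 16.7 to 25.2% and 19 a share of 0 to 3.92%, with none between. High libraries were 3 of 9 at 12 weeks (Natural replicates 1 and 3, IVF replicate 4) and 3 of 10 at 39 weeks (IVF replicates 2, 4 and 5). The highest of the low libraries was 39-week Natural replicate 1, with 72 of 1835 counts. In 12-week libraries with 0 counts of Hba-a2, the limit that 0 allows ran from 0.137 to 1.81% of the alpha pair. Over the bases compared the pair differs by the single base shown above, and the annotated Hba-a1 transcript is the longer (699 against 554 bases). Which reads the share rests on, and how the counting treated reads that match both copies, cannot be read from the counts. The E18.5 log2 fold change of Hba-a2, 2.49, accordingly rests on the high libraries, 3 of 6 in IVF and 1 of 4 in Natural. Both their number and their level differed, with up to 114 CPM in IVF and 38.5 CPM in the Natural one. The fold change was 6.93 without Natural replicate 2.

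**Figure D2:**
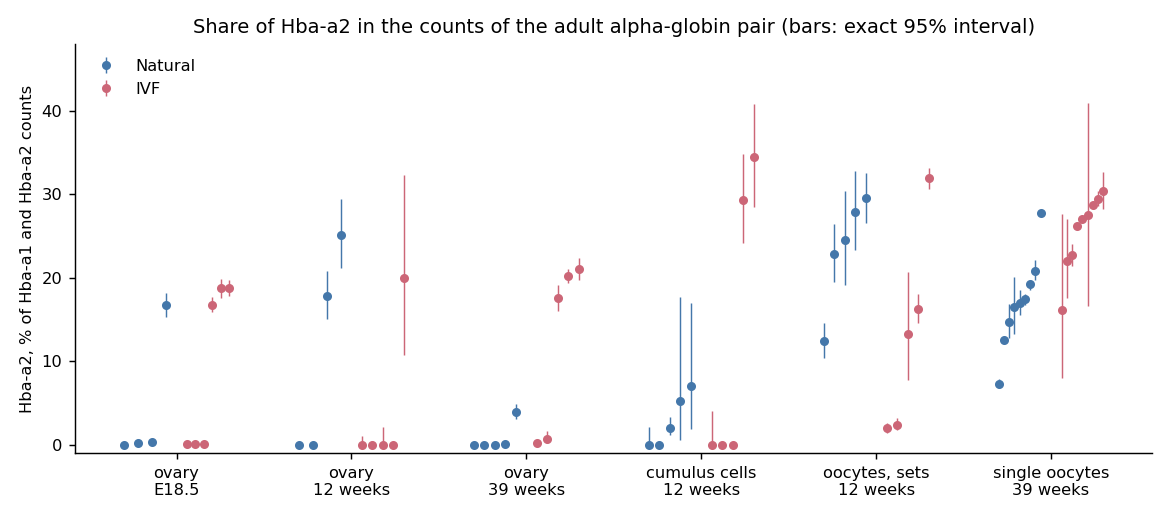
Share of Hba-a2 in the counts of Hba-a1 and Hba-a2, as a percent, for each ovary, cumulus library, set of 12-week oocytes and 39-week oocyte with at least 20 counts of the pair, Natural in blue and IVF in red, with exact 95% binomial intervals. Ovaries lie at 16.7 to 25.2% or at 3.92% and below, and 39-week oocytes between 7.36 and 30.4%.

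The beta pair showed no such split. Hbb-bt took 7.39 to 23.1% of the Hbb-bs and Hbb-bt counts in E18.5 IVF ovaries (median 17.3%) and 14.0 to 18.7% in Natural (median 15.5%). The share was 11.9 to 17.0% in IVF and 13.5 to 16.0% in Natural at 12 weeks, and 12.0 to 17.1% and 15.7 to 22.6% at 39 weeks.

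Other erythroid genes of the E18.5 ovary were grouped by role, and each group is described by its members' log2 fold changes. The red cell membrane and its skeleton had the largest median of the role groups: 11 of 15 genes tested were higher in IVF and 4 lower, with a median of 0.81. Rhd, a Rh blood group protein, was lowest at -0.47. Epb42 (protein 4.2, 1.92) and Kel (the Kell blood group protein, 1.72) were among the high values, and both had means under 4 CPM. Ank1, an ankyrin that anchors the membrane skeleton, was the only gene of this group whose libraries did not overlap (1.36). That is 1 of 15, with IVF higher, against 4.28% of all genes, and the count is not read further. Ank1, Epb42 and Kel were picked for mention after their values were seen.

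The other groups had medians from -0.09 to 0.16 in the same comparison. For the shared steps of heme synthesis after Alas2, 3 of 7 genes were higher and 4 lower, with a median of -0.09. They ran from Urod (uroporphyrinogen decarboxylase, -0.42) to Fech (ferrochelatase, which inserts iron, 0.46). For iron uptake and transport 6 of 7 were higher, with a median of 0.16, from Steap3 (a ferrireductase, -0.60) to Slc25a37 (mitoferrin 1, 0.79). Transcription factors had a median of 0.06, with 8 of 12 higher, from Lmo2 (-0.47) to Nfe2 (0.84), and the erythroid factors Gata1 and Klf1 were at 0.68 and 0.63, on means of 4.30 against 2.66 CPM and 1.97 against 1.28 CPM. For late maturation and red cell enzymes, 7 of 15 were higher and 8 lower, with a median of -0.06, from Bpgm (the enzyme of 2,3-bisphosphoglycerate synthesis, -0.50) to Hemgn (hemogen, 2.06 on a mean of 3.00 against 0.718 CPM).

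**Figure D3:**
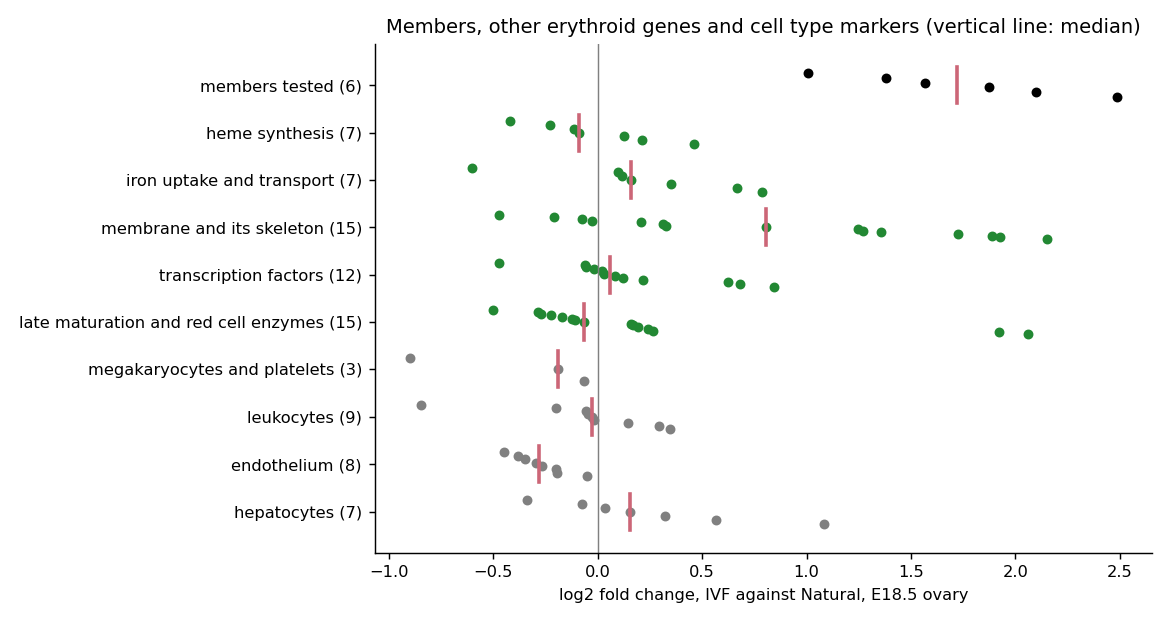
Log2 fold change of IVF against Natural in the E18.5 ovary for the 6 members tested, other erythroid genes by role (green) and markers of other cell types (grey), 1 point per gene, with the number of genes tested in brackets and the median as a vertical line. The members lie between 1.01 and 2.49, the membrane genes have a median of 0.81, and the 8 endothelial markers lie below 0.

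Markers of other blood and non-ovarian cells in the E18.5 libraries were set beside the members, and their part in the differences was not tested. Megakaryocyte and platelet markers were lower in IVF for all 3 of the 7 that could be tested, with a summed level of 12.0 to 21.3 CPM in IVF and 20.8 to 27.3 in Natural. For leukocytes, 3 of 9 tested were higher and 6 lower (summed 81.6 to 196 CPM in IVF, 92.2 to 135 in Natural). Endothelial markers, which line the vessels that hold blood, were lower in IVF for 8 of 8 (455 to 558 CPM against 502 to 671). Hepatocyte markers, of interest because the fetal liver makes red cells, were spread widely in both groups, with 5 of 7 higher in IVF and summed levels of 34.3 to 954 CPM in IVF and 64.8 to 615 in Natural. Kidney markers, from tissue next to the fetal gonad, were at a trace but did not overlap in sum (3.65 to 12.7 CPM in IVF and 1.596 to 2.84 in Natural). Adrenal cortex markers summed to 1.40 to 2.36 CPM in IVF and 0.499 to 2.299 in Natural, with Cyp11b2 at 0 in every library. None of the markers of the platelet, leukocyte, endothelial and hepatocyte lists was at 0 in every E18.5 library. The ovary's own cells were present, with pregranulosa and granulosa markers at 308 to 419.9 CPM in IVF and 317 to 502 in Natural, and germ cell and oocyte markers at 104 to 206 and 75.0 to 294 CPM. Among the latter, the oocyte genes Zp3, Ooep and Gdf9 had log2 fold changes of -3.14, -2.66 and -2.14, and the germ cell genes Dazl and Ddx4 had 0.65 and 0.28.

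Within the conception groups, the members followed each other only in part over the 10 E18.5 ovaries. After the group means were taken away, the Pearson correlation of each tested member with the mean of the others was 0.65 for Slc4a1, 0.60 for Hbb-bs, 0.58 for Alas2, 0.43 for Hbb-bt, 0.30 for Hba-a1 and 0.20 for Hba-a2. The libraries share their depth, so these values are descriptions. Outside the members, the genes most like their mean were Ctrl (a chymotrypsin-like protease, r = 0.92), LOC108167719, Gfi1, Zcchc12, Tmem138, Soat2, Gm40240, Plcd4, Arg2 and Ica1 (r from 0.87 to 0.90), over 10 libraries and on means mostly near 1 CPM. With Hba-a2 left out of the mean, an alternative added after the values were seen, none of these 10 stayed in the list and Gm5141 came first (r = 0.94). The genes named thus depended on which members were in the mean, and no other member was left out for comparison.

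In the adult ovary at 12 weeks, the question was whether the members still differed with conception, and no member was called. Hbb-bs was at 58.6, 182, 69.1 and 172 CPM in Natural and 23.9, 67.7, 44.2, 77.4 and 305 CPM in IVF. Of the IVF ovaries, 4 lay within or below the Natural range, and replicate 5 lay above it. The log2 fold changes were -0.21 ± 0.68 (SE) for Hbb-bs, -0.15 ± 0.77 for Hbb-bt, -0.41 ± 0.76 for Hba-a1 and 0.54 ± 0.46 for Alas2, with adjusted p-values of 0.917, 0.953, 0.839 and 0.606 (edgeR's quasi-likelihood test). None of the 4 members tested was called, none had an unadjusted p under 0.05, and DESeq2 called none either. Few genes were called at this age, 0.00567% of 17628, and 14.4% had an unadjusted p under 0.05.

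IVF replicate 5 carried the highest level of every abundant member at 12 weeks. Hba-a1 stood at 102 CPM there against 7.68 to 25.2 in the other IVF ovaries, and Slc4a1 at 1.59 CPM (34 counts) against 6 counts or fewer. Without it, the log2 fold change was -1.47 for Hba-a1, -1.21 for Hbb-bs and -1.36 for Hbb-bt. The other libraries held Slc4a1 at 0 to 12 counts, and Hba-x and Hbb-y at 0 except for 2 counts of Hba-x in IVF replicate 5 and 2 of Hbb-y in Natural replicate 1.

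At 39 weeks the members spread over an order of magnitude within each group. Hbb-bs was at 285, 329, 1247, 112 and 1039.6 CPM in Natural and 513, 198, 72.5, 1129 and 364 CPM in IVF. Natural replicates 3 and 5 and IVF replicate 4 stood above the rest. Slc4a1 followed the same libraries, at 0.529, 0.521, 12.9, 0.129 and 13.8 CPM in Natural and 2.14, 0.201, 0.117, 3.67 and 1.17 CPM in IVF. All 5 members tested had a lower mean in IVF, with log2 fold changes of -0.40 ± 0.76 (SE) for Hbb-bs, -1.10 ± 0.84 for Hbb-bt, -0.63 ± 0.71 for Hba-a1, -0.30 ± 0.72 for Alas2 and -1.94 ± 1.28 for Slc4a1. Adjusted p-values ran from 0.415 to 0.846 (edgeR's quasi-likelihood test), none was called, none had an unadjusted p under 0.05 and DESeq2 called none, against 0.262% of 17186 genes called and 19.2% with an unadjusted p under 0.05. Endothelial markers were lower in IVF for 8 of 8 at this age (summed 299.9 to 444 CPM in IVF and 445 to 604 in Natural). At 12 weeks 5 of the 8 were higher in IVF and 3 lower. The part of these cells was not tested.

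The IVF effect itself was compared between the adult ages, and no member was called. Of the 6 members tested, 1 had an unadjusted p under 0.05: Hba-a2, with a log2 difference of 7.65 (unadjusted p = 0.0206, adjusted p = 0.176, edgeR's quasi-likelihood test). Its high libraries were Natural replicates 1 and 3 and IVF replicate 4 at 12 weeks and IVF replicates 2, 4 and 5 at 39 weeks. Hba-a2 passed the filter on low counts in neither adult age alone, and Slc4a1 did not pass it at 12 weeks. Both entered this fit because the ages were joined. At 12 weeks Hba-a2 had 0 counts in 4 of 5 IVF and 2 of 4 Natural ovaries, so its value is not read further. DESeq2 called none, and 0.0157% of 19066 genes were called, with 20.1% at an unadjusted p under 0.05. The E18.5 contrast was not included in this test because it chose the members.

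Embryonic globins were at or near 0 in adult ovaries with 1 exception. In 39-week Natural replicate 1, Hba-x had 22 of 1857 alpha-like counts (1.19%, exact 95% interval 0.744 to 1.79%), and Hbb-y and Hbb-bh1 together had 22 of 6486 beta-like counts (0.339%, interval 0.213 to 0.513%). In the other 18 adult ovaries the alpha-like share was at most 0.128% and the beta-like share at most 0.119%. The shares in this adult library were higher than the highest of any E18.5 ovary, 0.203% and 0.161%, while its Hba-a1 level of 93.3 CPM was in the middle of its group.

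Age was compared in the Natural ovaries. The choice of members did not use this contrast, but it did use the E18.5 Natural libraries. These form 1 side of the first age comparison and are part of the fit for both, so the tests are not fully independent of the choice. Of the 6 members tested, 5 were called lower at 12 weeks than at E18.5, and Hba-a2 was not called. The 5 calls include Slc4a1, and limits on it and on Hba-a2 are given below. Hbb-bs fell by 2.43 on the log2 scale (SE 0.64, adjusted p = 0.00564, edgeR's quasi-likelihood test), Hba-a1 by 2.40 (0.0123), Hbb-bt by 2.45 (0.0128) and Alas2 by 1.72 (0.0304), the values in brackets being adjusted p-values. Slc4a1 fell most, by 5.22 (SE 1.32, adjusted p = 0.00446), from 3.72 to 17.5 CPM at E18.5 to 2 to 12 counts a library at 12 weeks, each level being scaled within its own table. Slc4a1 did not pass the filter on low counts in the 12-week ovaries alone. It entered this fit through the other ages, where it was higher, so its call is not read further. Every Natural 12-week ovary lay below every Natural E18.5 ovary for the 5 members called, which held for 20.2% of all genes. Hba-a2 had a log2 fold change of -1.996 (adjusted p = 0.381, edgeR's quasi-likelihood test). It passed the filter on low counts in neither adult age alone. With a library left out its change ranged from -2.58 to 2.34, so its direction is not read further. Across all genes 51.8% of 18251 were called, 28.1% as higher and 23.7% as lower. The call of Alas2 was lost without E18.5 Natural replicate 3 or 4 or any 1 of the 12-week Natural ovaries (adjusted p up to 0.0708), which left 4 calls.

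From 12 to 39 weeks the same Natural ovaries had 5 of the 6 members called higher. Alas2 rose by a log2 fold change of 2.68 (SE 0.61, adjusted p = 0.00610, edgeR's quasi-likelihood test), from 3.46 to 4.89 CPM at 12 weeks to 5.09 to 52.5 CPM at 39 weeks, and it was the only member whose ages did not overlap. Hbb-bs rose by 2.45 (adjusted p = 0.0115), Hbb-bt by 2.97 (0.0101), Slc4a1 by 4.56 (0.0191) and Hba-a1 by 2.09 (0.0426), with adjusted p-values in brackets. The limit on Slc4a1, which entered the fit through the ages other than 12 weeks, holds here too. Hba-a2 was not called, and it passed the filter in neither of these ages alone. Natural replicate 4 at 39 weeks, with Hbb-bs at 112 CPM, lay within the 12-week range of 58.6 to 182 CPM. Across all genes 23.1% were called, 9.99% as higher and 13.1% as lower, and non-overlap with 39 weeks higher held for 11% of genes. The calls of Hba-a1 and Slc4a1 were both lost without 12-week Natural replicate 1 or 3, leaving 3. Hba-a1 was also lost without E18.5 Natural replicate 2 or 3, 12-week Natural replicate 4 or 39-week Natural replicate 3 or 5, and when only library totals scaled the counts (adjusted p = 0.0528).

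Other blood and vessel genes were read in the same age contrasts. From 12 to 39 weeks, endothelial markers were called higher for 4 of 8 and leukocyte markers for 4 of 10, with summed endothelial levels of 326 to 440.0 CPM at 12 weeks and 445 to 604 at 39 weeks and leukocyte levels of 134 to 267 and 219 to 252 CPM. Megakaryocyte and platelet markers went the other way. All 3 tested were lower and 2 were called lower, with summed levels of 18.8 to 24.4 CPM at 12 weeks and 7.93 to 11.8 at 39 weeks. Of the other erythroid genes, 1 of 7 for heme synthesis, 2 of 7 for iron, 2 of 15 for the membrane, 1 of 12 transcription factors and 4 of 15 for late maturation were called higher, and 0, 0, 1, 1 and 4 were called lower, against the 9.99% higher and 13.1% lower over all genes. From E18.5 to 12 weeks, 6 of 15 membrane genes and 6 of 12 transcription factors were called lower and 4 and 1 higher, while 5 of 7 heme synthesis genes were called higher, against the 28.1% higher and 23.7% lower over all genes. These counts of few genes describe the lists and were not tested against those shares. Hepatocyte markers were called lower for 5 of 7 and higher for none between these ages, with summed levels of 64.8 to 615 CPM at E18.5 and 31.1 to 72.8 at 12 weeks, and endothelial markers were called lower for 4 of 8. Leukocyte markers were called higher for 4 of 10 and lower for 3, and platelet markers higher for 1 of 3 and lower for 1. The part of these cells in the age differences was not tested. Each age was deposited in a table of its own, and the fetal and adult ovaries differ in the tissue taken, so age and table cannot be told apart.

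**Figure D4:**
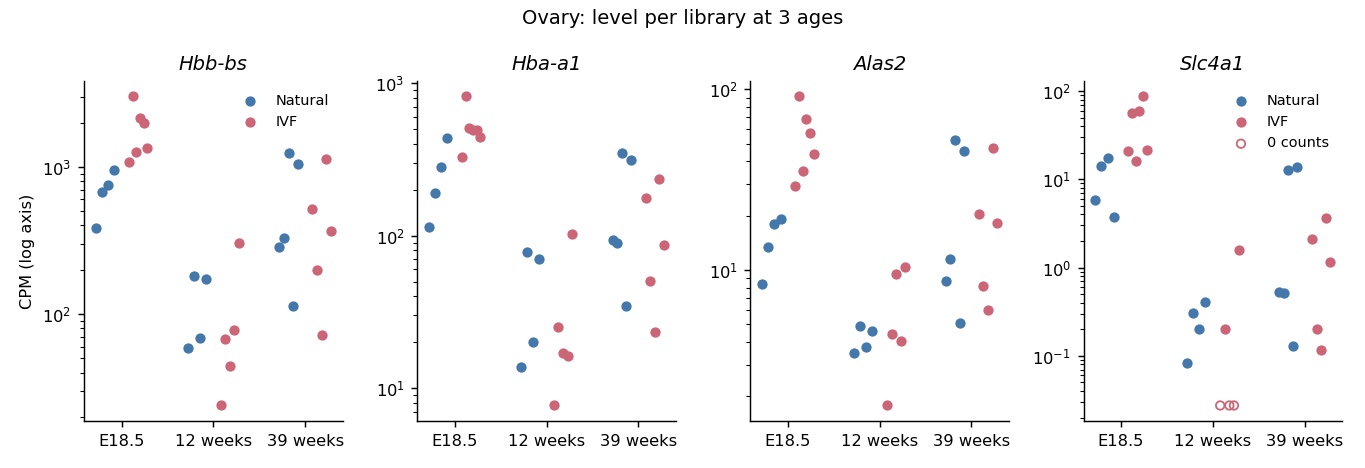
CPM of Hbb-bs, Hba-a1, Alas2 and Slc4a1 on log axes in the ovaries of each age, Natural in blue and IVF in red, with open circles for 0 counts. Every 12-week ovary lies below every E18.5 ovary for Hbb-bs, Hba-a1 and Slc4a1, and Hbb-bs at 39 weeks ranges from 72.5 to 1247 CPM.

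Germ cells at E13.5 held almost none of the members. Across the 9 PGC libraries, Hba-a2 had no count, and Hba-a1, Hba-x, Hbb-bs, Hbb-bt, Hbb-y and Slc4a1 had at most 4 counts, except in IVF replicate 2, with 58 counts of Hba-a1 (9.76 CPM) and 192 of Hbb-bs (32.3 CPM). That library had 2 counts of Hbb-bt and none of Slc4a1, Hba-x or Hbb-y. Alas2 was the only member that passed the filter, at 1.72, 2.56, 1.25 and 3.53 CPM in Natural and 1.63, 2.86, 3.40, 1.37 and 2.38 CPM in IVF. The ranges coincided, with a log2 fold change of 0.04 ± 0.56 (SE, adjusted p = 1.00, edgeR's quasi-likelihood test). No gene was called among 12763, 2.73% had an unadjusted p under 0.05, and DESeq2 called no member.

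In 12-week cumulus cells, which surround the ovulated oocyte, the adult globins were present while Slc4a1 and the embryonic globins were at or near 0. Hba-a1 was at 29.4, 10.4, 7.43, 182 and 163 CPM in Natural and 74.6, 18.7, 55.1, 179 and 563 CPM in IVF. The table joined libraries of 2 naming schemes, 3 numbered and 2 worded libraries in each group, and the worded ones, the last 2 of each group, were the higher ones for Hba-a1. Hbb-bs was at 28.3, 14.5, 11.1, 159 and 114 CPM in Natural and 89.8, 14.9, 117, 103 and 343 CPM in IVF. Alas2 had 1 to 6 counts a library, Slc4a1 had 1 count in 1 library, and Hba-x and Hbb-y had none, although globins reached 1009 CPM in all in the richest library.

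With the library scheme in the model, globin levels in cumulus cells were higher in IVF by a log2 fold change of 1.40 ± 0.39 (SE) for Hba-a1, 1.47 ± 0.45 for Hbb-bs and 1.42 ± 0.58 for Hbb-bt. None of the 3 members tested was called (adjusted p = 0.401, 0.587 and 0.724, edgeR's quasi-likelihood test), though all 3 had an unadjusted p under 0.05 (0.00207, 0.00468 and 0.0254), and DESeq2 called none. Of 10280 genes, 0.00973% were called and 6.08% had an unadjusted p under 0.05. Within the numbered libraries (3 against 3) mean Hba-a1 was 49.5 CPM in IVF and 15.7 in Natural (log2 difference 1.66), and within the worded libraries (2 against 2) it was 371 and 172 CPM (0.88). For Hbb-bs the differences were 1.68 and 0.49, and for Hbb-bt 1.80 and 0.13. Without the filter on low counts the adjusted p of Hba-a1, Hbb-bs and Hbb-bt fell to 4.6e-09, 1.2e-09 and 3.4e-06, so the call depended on which genes entered the fit. Leukocyte markers varied as widely in these libraries (148 to 4400.2 CPM in IVF and 74.9 to 2358 in Natural), hCG-induced cumulus markers were at 408 to 925 and 341 to 844 CPM, and the part of other cells was not tested.

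Alpha-like counts were more frequent relative to beta-like counts in cumulus cells than in ovaries. The ratio was above 1 in 4 of 5 IVF and 1 of 5 Natural cumulus libraries (0.569 to 1.35 and 0.606 to 1.06), and at most 0.451 in any ovary. The library kits differ between these tables, so the kit and the cells cannot be told apart. Hba-a2 took 29.3 and 34.4% of the alpha pair in IVF cumulus libraries 126_3_GC and 127_2_GC, 7.02 and 5.26% in Natural libraries 92_5_GC and 126_2_GC on 57 and 38 counts, 2.08% in a worded Natural library, and had no count in the other 5.

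Single oocytes were described without a test between the groups, since each library is 1 cell and the labels name no donor. At 12 weeks, Hbb-bs had counts in 39 of 40 IVF and 33 of 36 Natural oocytes, with a median of 16.6 CPM in IVF (0 to 820.1) and 6.67 in Natural (0 to 130.5). At 39 weeks every oocyte had counts, with a median of 64.2 CPM in IVF (1.86 to 15089) and 863 in Natural (48.9 to 10953). Levels thus spanned more than the groups' difference at each age, and the order of the group medians was opposite at the 2 ages. All globin rows took 7e-05 to 0.223% of a 12-week IVF oocyte's counts and 0 to 0.0234% of a Natural one's, and at 39 weeks they exceeded 1% in 2 of 10 IVF and 2 of 9 Natural oocytes, with 2.70% and 1.83% at most.

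The other members were seen less regularly in oocytes. Slc4a1 had no count in any of the 40 IVF oocytes and counts in 2 of 36 Natural oocytes at 12 weeks, and in 2 of 10 and 1 of 9 at 39 weeks. Alas2 had counts in 24 of 40 and 21 of 36 oocytes at 12 weeks and in 6 of 10 and 9 of 9 at 39 weeks, with medians of 0.289, 0.194, 1.15 and 6.23 CPM. Hba-x was seen in 1 of 40 and 2 of 36 oocytes at 12 weeks and in 0 of 10 and 1 of 9 at 39 weeks, and Hbb-y in 4 of 40, 1 of 36, 1 of 10 and 3 of 9.

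The 12-week oocytes fell into 10 sets that share number fields in the library name, 5 per group, and the labels do not say what the fields mean. Median Hbb-bs ranged from 3.86 to 53.4 CPM over the IVF sets and from 2.88 to 32.5 CPM over the Natural sets, and within a set the oocytes differed by far more, from 0.792 to 360 CPM in set 126_3, for example. Hba-a2 shares, pooled over the oocytes of a set, were 31.9% (exact 95% interval 30.7 to 33.2%) in 127_2, 16.3% (14.6 to 18.1%) in 126_3, 2.44% (1.80 to 3.23%) in 126_2, 1.99% (1.44 to 2.68%) in 126_4 and 13.3% (7.82 to 20.7%) in 127_3 among the IVF sets, and from 12.4% (10.4 to 14.6%) in 35_3 to 29.5% (26.6 to 32.6%) in 92_5 over the 5 Natural sets. In each set 1 oocyte held 30.0 to 90.8% of the alpha pair counts (77.9% in 127_2), so a set's share is largely that of few oocytes. Of the sets with a cumulus library of the same fields, 127_2 and 126_4 had overlapping intervals of the Hba-a2 share in cumulus cells (28.5 to 40.8% and 0 to 4.11%), as did 126_2 (0.644 to 17.7%), whereas 126_3, 35_3 and 92_5 did not. Fields 126_2 name IVF oocytes and a Natural cumulus library, so the fields or a label may not stand for the same animal. At 39 weeks the share was 16.1 to 30.4% in IVF oocytes (median 27.3%) and 7.36 to 27.7% in Natural (median 17.0%).

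**Figure D5:**
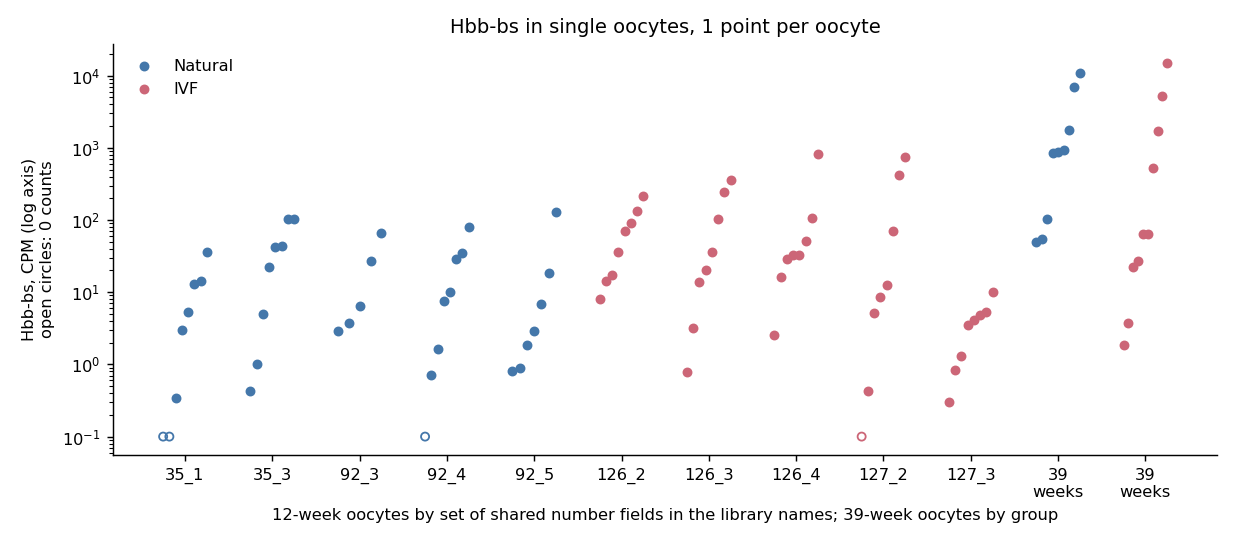
Hbb-bs in CPM on a log axis for each single oocyte, at 12 weeks by the set of number fields in the library name and at 39 weeks by group, Natural in blue and IVF in red, with open circles for 0 counts. Oocytes of the same set lie far apart, and the highest values, 15089 and 10953 CPM, are at 39 weeks.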

How the data were processed

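Per the labels, the authors deposited 7 tables of raw read counts per gene, 1 per tissue or cell type and age. The submitters' processing notes name Trimmomatic 0.32, STAR 2.3.0e, featureCounts 1.5.0 and DESeq2 with the mouse build mm10, and the methods give stranded mRNA-seq for ovaries and a SMART-Seq protocol with Nextera XT libraries for germ cells, oocytes and cumulus cells. How reads matching several genes were counted is not given in the sources used here. Of the counts above 0, 56.5 to 73.2% were even, table by table, so the intervals for counting error are too narrow where 1 fragment gave 2 counts. Cumulus libraries at 39 weeks were not analysed here.

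Members and gene lists were chosen with earlier results of these data known. The genes named were the 8 members, the other globin rows, the highest and lowest gene of each erythroid role at E18.5 (some of the genes in the lists are not reported here) with Gata1 and Klf1, any listed gene called elsewhere, and the 10 genes with the highest correlation with the members.

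In R 4.3.3, edgeR 4.0.16 (TMM, filterByExpr, quasi-likelihood test, two-sided) was fitted over all genes of each table, with Benjamini-Hochberg adjustment over all genes tested and a threshold of 0.05. Cumulus fits had the library scheme as a covariate, and Natural ovaries of the 3 ages were fitted together. Log2 CPM for correlations had a prior count of 2. Shares have exact (Clopper-Pearson) 95% intervals, and a share of 0 has a limit of 3 counts. DESeq2 1.42.0, other scalings and filters, summed copies, the replicate number as a block and leaving out each library in turn were the alternatives. Each fit was tested on simulated data. Sequences came from GENCODE vM21 transcripts and RefSeq promoters by symbol, and Slc4a1 had no promoter entry. Python 3.11.15 with SciPy 1.17.1 and matplotlib 3.10.9 was used for shares and plots.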

Additional observations from a re-analysis of the deposited data

Results flagged for a closer look

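Within each group of 4 to 10 libraries, the highest and the lowest library of a member were each compared with the others. The measure was the gap to the nearest library relative to the range of the group (Dixon's test at the 95% level). Groups with no count of the member above 3 were left out. Of 70 combinations of member and group, 23 had a library that stood apart, always the highest. Chance gives about 1 in 20 for normally distributed values, a rate that need not hold here, since CPM are skewed and in some groups every other library is at 0. Members of 1 library are not independent of each other.

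In the E18.5 ovary, IVF replicate 2 stood apart for Hba-a1 (820.3 CPM, next 509), and Natural replicate 2 for Hba-a2 (38.5 CPM). At 12 weeks, IVF replicate 5 stood apart for Hba-a1 (102 CPM), Hbb-bs (305 CPM), Hbb-bt (62.7 CPM) and Slc4a1 (1.59 CPM), and IVF replicate 4 for Hba-a2 (4.06 CPM). At 39 weeks, Natural replicate 1 stood apart for Hba-a2 (3.81 CPM), Hba-x (1.16 CPM) and Hbb-y (0.635 CPM), and IVF replicate 1 for Hba-x (0.225 CPM, 4 counts).

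Among the low-input libraries, IVF PGC replicate 2 stood apart for Hba-a1 (9.76 CPM) and Hbb-bs (32.3 CPM), and a worded Natural cumulus library for Hba-a2 (3.86 CPM). Of the 39-week oocytes, IVF oocyte 1 stood apart for Hba-a1 (7762 CPM), Hba-a2 (2876 CPM), Hbb-bs (15089 CPM), Hbb-bt (5668 CPM) and Hbb-y (0.640 CPM), and IVF oocyte 5 for Slc4a1 (8.15 CPM). Natural oocyte 3 stood apart for Alas2 (32.3 CPM) and Hba-x (0.674 CPM), and Natural oocyte 1 for Slc4a1 (0.534 CPM). These oocytes are single cells with no donor named, so their flags describe cells and not replicates of a group.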

How the results depend on the processing

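The median log2 fold change of the members at E18.5 was 1.72 and lay between 1.56 and 1.76 under the other settings and between 1.501 and 1.98 with each library left out. Counts of members called stayed at 0 in the 12-week ovary, the 39-week ovary, PGCs and the age difference of the IVF effect, under every setting run and every library left out (0 to 0). In cumulus cells the count was 0 with each library left out, and 4 without the filter on low counts, where the tested genes include many with few counts. Leaving out a library left 4 to 5 calls for 12 weeks against E18.5 and 3 to 5 for 39 against 12 weeks in Natural ovaries. The library 126_2_GC and the library scheme changed no call. Same-numbered libraries did not deviate together in all pairs (0 of 4 correlations above 0.1 at E18.5, 2 of 4 at 12 weeks, 3 of 5 at 39 weeks and 3 of 4 in PGCs), so the numbers are not taken as pairs. With the replicate block the E18.5 median was 1.61, no count of calls changed, and Hba-a2 at E18.5 moved from 2.49 to 4.22.

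Directions of uncalled members changed in the following cases, and the cause was not tested. With summed copies, the age difference of the IVF effect for Hba-a1 went from -0.24 to 0.014. With a library left out, the log2 fold change ranged from -1.21 to 0.0217 for Hbb-bs and -1.36 to 0.11 for Hbb-bt at 12 weeks, -1.07 to 0.0458 for Hbb-bs and -0.91 to 0.17 for Alas2 at 39 weeks, and -0.15 to 0.34 for Alas2 in PGCs. The age difference ranged from -0.70 to 0.81 for Hba-a1, -0.88 to 0.78 for Hbb-bs and -1.61 to 0.26 for Hbb-bt. Hba-a2 at 12 weeks against E18.5 ranged from -2.58 to 2.34. Depth limits the embryonic globins, Slc4a1 in adult ovaries and all members in PGCs, most of which rest on under 20 counts a library.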

Other observations

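The theta-like globin row Hbq1b, outside the members, had low counts in most ovaries. It had 1 to 11 counts in the 6 E18.5 IVF ovaries (mean 0.532 ± 0.363 CPM, SD) and 2, 6, 5 and 0 in the 4 Natural ovaries, 0 to 9 counts at 12 weeks and 1 to 14 at 39 weeks. Cumulus cells and PGCs had no count of Hbq1b, although cumulus libraries held up to 3470 counts of Hba-a1. In 39-week oocytes, Hbq1b was seen in 4 of 10 IVF and 2 of 9 Natural oocytes.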
